A study of Mus musculus with 30 samples.

Results

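The mRNAs described here encode 9 proteins of axon growth and the axonal cytoskeleton: Gap43, Basp1, Marcks, Nrn1, Stmn2, Sncg, Tubb3, Actb and Hmgb1. They were found by gene name in the deposited count tables, which gave 14 transcripts of the 20423 listed, and 9 genes of the 14470 listed. Actb had 3 listed transcripts, Hmgb1 had 4 and each other gene had 1. The most abundant transcript stands for its gene below; it held 99.98% of the Actb counts and 94.4% of the Hmgb1 counts. RNA came from mouse sciatic nerve axoplasm, an extract enriched in the cytoplasm of axons, prepared from injured nerve 7 days after a crush or from naive nerve, with 10 nerves pooled per sample. PTBP1 or nucleolin was pulled down from the extracts by immunoprecipitation (IP). The control used the same antibody after incubation with its blocking peptide (blocked IP), and input RNA was sequenced beside them. The 10 groups were therefore injured and naive PTBP1 IP, PTBP1 blocked IP, nucleolin IP, nucleolin blocked IP and input, with 3 independent biological repeats each, 30 libraries in all. The labels used here give no strain, sex, age or genotype. Levels are given as CPM, the count of a transcript scaled to library size over all 30 libraries, and libraries 1, 2 and 3 of a group are given in that order.

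Axons hold mRNAs far from the cell body and translate some of them locally, during growth and after injury. Gap43, Basp1 and Marcks encode membrane proteins that bind acidic phospholipids and act on the actin cortex of growth cones. Nrn1 (neuritin) is a surface-anchored neurite growth factor, Stmn2 (SCG10) binds tubulin, and Sncg (gamma-synuclein) is a cytoplasmic protein abundant in peripheral neurons. Tubb3 is neuronal beta-tubulin, Actb is beta-actin, and Hmgb1 (amphoterin) is a chromatin protein whose mRNA also localizes to axons. PTBP1 (polypyrimidine tract binding protein) binds runs of pyrimidines in RNA, and nucleolin is a nucleolar protein that also binds and localizes axonal mRNAs.

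Libraries held between 7536033 and 22919174 counts of listed transcripts. Every pair of repeats differed by far more than counting noise, with a chi-square of at least 60.97 per degree of freedom. The table of inputs held no transcript at 0 in injured inputs 2 and 3, so an mRNA missing after crush would not be listed there. One transcript, Yam1, took 38.1%, 19.5% and 5.37% of injured inputs 1, 2 and 3. Library 3 listed the fewest zeros in every IP and every blocked IP group. For the injured PTBP1 IP the shares at 0 were 7.26%, 6.46% and 1.64%, and for the injured PTBP1 blocked IP 25.8%, 28.7% and 16.9%. In the inputs, 6 of 18 markers of sensory and motor neurons were listed, and their summed level was 341 to 470 CPM in injured and 125 to 181 CPM in naive nerve. Most of it in injured input was Thy1, a surface protein also found outside neurons, with a mean of 358 CPM. In naive input Thy1 was the highest of the listed markers but not most of the sum, with a mean of 63.5 CPM. Of the other listed markers, Nefl, Snap25 and Calca had lower means in injured input (15.1, 9.30 and 7.46 CPM) than in naive input (32.7, 17.6 and 15.2 CPM). Nefm and Uchl1 had slightly higher means in injured input (14.2 and 9.32 CPM) than in naive input (11.5 and 6.84 CPM). The median log2 fold change of the 6 was -0.34, and 1 of them was called. Neuron-defining markers such as Prph, Nefh, Isl1, Avil and Scn10a were among the 12 that were not listed. Schwann cell and myelin markers (9 of 12 listed) summed to 4935 to 7772 CPM in injured and 28165 to 54049 CPM in naive inputs. Macrophage markers (12 of 12 listed) summed to 5760.0 to 8591 CPM in injured and 1513 to 2359 CPM in naive inputs. In such bulk extracts, fewer cells of a type and less RNA per cell cannot be told apart.

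Because PTBP1 is known to bind pyrimidine runs, the longest runs of C and T in the member transcripts are shown here. Capitals mark the run, written 5′ to 3′ with up to 30 bases of the transcript, and the sequences are GENCODE M21 transcripts on GRCm38. Marcks and Nrn1 have the longest runs of the 9, and Basp1 and Sncg are set beside them.
Marcks 3′ UTR, chr10:37135565-37135594, minus strand: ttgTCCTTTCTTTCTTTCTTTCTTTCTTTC
Nrn1 3′ UTR, chr13:36726449-36726478, minus strand: ctgTTTCTCTCTTTTTCTTCTTCTTTTTTT
Basp1 3′ UTR, chr15:25364159-25364178, minus strand: acgCTCTCTCTCTCTCTgtt
Sncg 3′ UTR, chr14:34370305-34370323, minus strand: tgaTTTCTTTTTTTTTaat
The Marcks run was cut for print: it is 54 bases long, at chr10:37135538-37135591, and a run at least as long was found in 2.65% of the 14737 PTBP1-table transcripts searched. The Nrn1 run is 39 bases long, at chr13:36726437-36726475, a length reached by 4.53% of transcripts. The Basp1 and Sncg runs are 14 and 13 bases long, against a median of 14 over all transcripts. Among transcripts of similar length the medians were 13 for Basp1 and 11 for Sncg. Runs as long were found there in 3.31% for Marcks, 2.51% for Nrn1, 40.4% for Basp1 and 27.6% for Sncg. Among the other members, the longest run was 29 bases in Actb, a run of T alone, and 20 bases in Hmgb1. It was 12 bases in Gap43 and Stmn2 and 9 bases in Tubb3, whose run lies in the coding sequence. The motif TCTT, searched on the transcript's own strand with overlaps counted, occurred 10.1 times per kb in Marcks and 9.26 times per kb in Nrn1. The median transcript had 5.11 per kb, and densities as high were found in 3.22% of transcripts for Marcks and 5.37% for Nrn1. Basp1 had 2.16 TCTT per kb, a density reached by 91.5% of transcripts. The motif CTCTCT, counted the same way, occurred 7 times in Basp1, 6 times in Nrn1, 5 times in Gap43 and 1 time in Marcks, and 59.6% of transcripts held at least 1. These matches describe the letters of the transcripts and do not show binding.

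The input libraries showed how the extract's mRNA content differed 7 days after crush. Basp1, Tubb3, Actb and Marcks rose and Sncg, Nrn1 and Stmn2 fell, while Gap43 and Hmgb1 did not pass the test. Counted over transcripts, 7 of the 11 member transcripts tested passed an adjusted p of 0.05, and 27.8% of all 14095 transcripts tested did so (14.5% higher and 13.4% lower). The 7 called members did not overlap between injured and naive inputs, which held for 44.3% of all transcripts tested.

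Basp1 (chr15:25363277-25413764, minus strand, 2 exons) encodes a growth cone membrane protein. It was at 560.5, 735 and 907 CPM in injured inputs, against 49.0, 49.5 and 63.3 CPM in naive inputs. All injured libraries were above all naive libraries, and the log2 fold change was 3.73 (SE 0.27, adjusted p = 4.01e-06, quasi-likelihood test of edgeR, Benjamini-Hochberg adjustment). Its rank by p was 20 among the transcripts tested. Marcks (chr10:37133375-37138920, minus strand, 2 exons), whose protein crosslinks actin at the membrane, was at 4217, 4482 and 5303 CPM in injured inputs and 2877, 2523 and 2477 CPM in naive inputs. These groups did not overlap either, at a smaller log2 fold change of 0.81 (standard error 0.22, adjusted p = 0.0154). Marcks was no longer called without injured input 2 (adjusted p = 0.0504) or without naive input 2 (adjusted p = 0.0997).

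Of the cytoskeletal subunits, Tubb3 (chr8:123411424-123422015, plus strand, 4 exons) was at 50.8, 72.5 and 46.5 CPM in injured inputs, against 19.0, 9.19 and 13.2 CPM in naive inputs. Its log2 fold change was 2.03 (SE 0.34, adjusted p = 0.000879). Actb (chr5:142903115-142906754, minus strand, 6 exons) was at 22977, 21724 and 20289 CPM in injured inputs and 7377, 5973 and 8886 CPM in naive inputs. Injured libraries were above naive libraries for both genes, and for Actb the log2 fold change was 1.52 (SE 0.27, adjusted p = 0.00134). With library totals as the only scaling, the median of all transcripts moved to -0.26 (0.00 with TMM scaling), and Actb had 1.24 (adjusted p = 0.148) and Marcks 0.58 (adjusted p = 0.509). Yam1 held a larger share of every injured input than of any naive input, and its part in that shift was not tested.

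Sncg (chr14:34370274-34374789, minus strand, 5 exons) showed the largest fall of the 9 genes. It was at 60.1, 35.6 and 44.7 CPM in injured inputs, against 522, 625 and 804 CPM in naive inputs, with no overlap. The log2 fold change was -3.83 (SE 0.30, adjusted p = 6.09e-06). Nrn1 (chr13:36725625-36734477, minus strand, 3 exons) was at 30.7, 14.6 and 34.0 CPM in injured inputs and 264, 202 and 81.6 CPM in naive inputs. The groups were apart although naive library 3 was well below naive libraries 1 and 2, and the log2 fold change was -2.78 (SE 0.41, adjusted p = 0.000417). Stmn2 (chr3:8509360-8561606, plus strand, 5 exons) was at 32.8, 19.6 and 28.5 CPM in injured inputs, against 93.3, 82.3 and 74.2 CPM in naive inputs. It fell by 1.65 on the log2 scale (SE 0.27, adjusted p = 0.000869), and all injured values were below all naive values. Each of these 3 falls kept an adjusted p under 0.05 without any single input. The Schwann cell and myelin sums were lower and the macrophage sums higher in the same injured libraries. Adipocyte markers (5 of 7 listed) summed to 460 to 544 CPM in injured and 3627 to 4530 CPM in naive inputs, and all 5 were called lower. Also called lower were 4 of 5 skeletal muscle, 3 of 3 red blood cell and 3 of 6 fibroblast markers tested. Of 6 endothelial markers, 2 were called higher and 1 lower. The part of these cell types in the result was not tested.

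Gap43 (chr16:42248442-42340651, minus strand, 3 exons), a growth cone protein widely used as a sign of axon growth, was scarce. It was at 20.6, 5.63 and 7.32 CPM in injured inputs and 18.3, 8.8 and 2.23 CPM in naive inputs. The groups overlapped almost completely, and the log2 fold change was 0.21 (SE 0.68, adjusted p = 0.851). Hmgb1 (chr5:149046702-149053040, minus strand, 5 exons) was at 92.1, 70.9 and 72.5 CPM in injured inputs, against 172, 112 and 69.6 CPM in naive inputs. Naive library 3 was below all injured libraries, and the log2 fold change was -0.58 (SE 0.29, adjusted p = 0.165).

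Per kb of transcript, Actb had the highest mean input level in both states, with 11283 CPM per kb in injured and 3860.5 CPM per kb in naive input. Marcks had 1153 CPM per kb in injured and 649 CPM per kb in naive input. Basp1 and Sncg changed places in the order: Basp1 had 396 CPM per kb in injured and 29.1 CPM per kb in naive input, whereas Sncg had 54.9 CPM per kb in injured and 763 CPM per kb in naive input. Tubb3, Hmgb1, Nrn1, Stmn2 and Gap43 lay between 7.88 and 30.3 CPM per kb in injured input and between 6.89 and 113 CPM per kb in naive input.

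**Figure D1:**
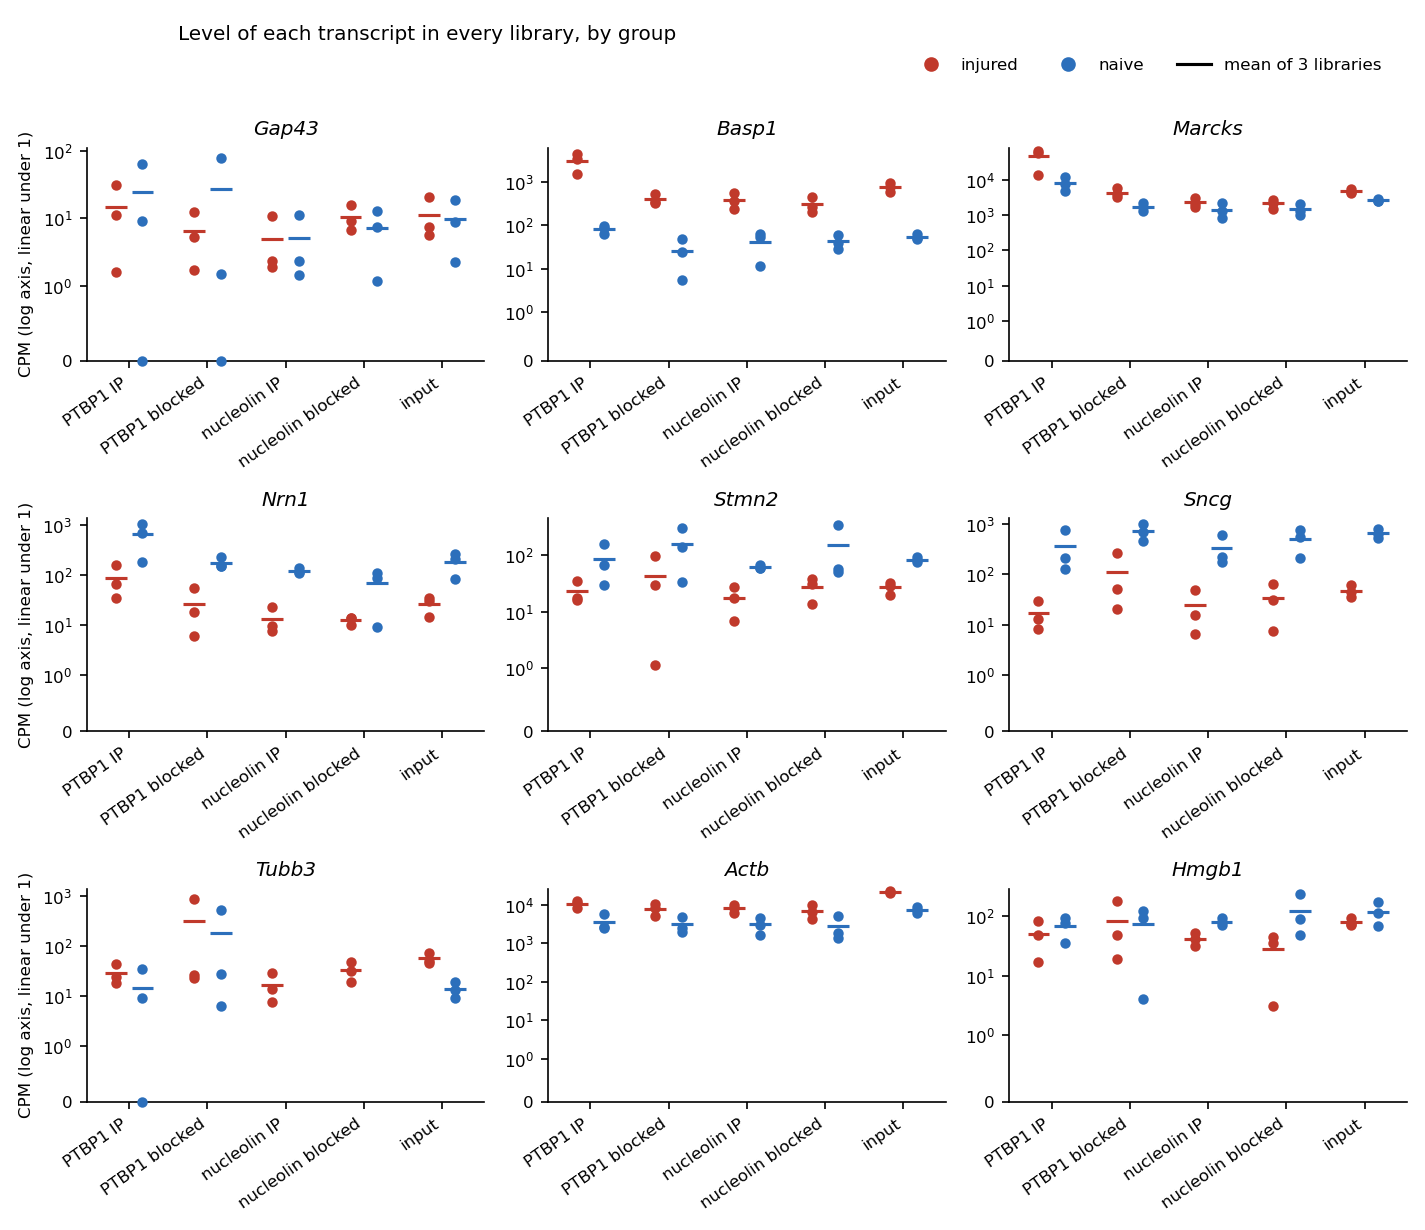
CPM of each gene's main transcript in all 30 libraries (log axis, linear under 1), by kind of library, with injured libraries in red, naive libraries in blue and a line at the mean of 3. Basp1 points are higher in injured than in naive libraries throughout (560.5 to 907 CPM against 49.0 to 63.3 CPM in input). Sncg points are mostly lower (35.6 to 60.1 CPM against 522 to 804 CPM in input). Tubb3 has no naive nucleolin points because it was not listed for those libraries.

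The IP and blocked IP libraries were compared between injured and naive nerve in the same way; these differences combine abundance, background and recovery. Basp1 was the 1 member called in either nucleolin comparison. It was at 237, 353 and 545 CPM in injured nucleolin IPs, against 11.6, 61.7 and 52.2 CPM in naive nucleolin IPs. It was at 259, 205 and 439 CPM in injured nucleolin blocked IPs, against 38.7, 29.0 and 59.6 CPM in naive ones. In both kinds of library the injured values were all above the naive values; over all transcripts, groups did not overlap for 28.8% in the IP and 24.2% in the blocked IP. The log2 fold change was 3.26 in the IP (SE 0.63, adjusted p = 0.0377), where 0.828% of 11840 transcripts were called. It was 2.85 in the blocked IP (SE 0.62, adjusted p = 0.0412), where 1.55% were called. Leaving out any 1 library gave adjusted p-values of 0.0723 to 0.17 in the IP, so that call was lost each time, and 0.0361 to 0.103 in the blocked IP. Sncg had a log2 fold change of -3.71 (adjusted p = 0.0938) in the nucleolin IP and -3.85 (adjusted p = 0.0576) in the blocked IP. Nrn1 had -3.06 (adjusted p = 0.0953) in the nucleolin IP and -2.40 (adjusted p = 0.116) in the blocked IP.

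With the PTBP1 antibody, no member passed the test between injured and naive nerve, where 0.00688% of 14540 transcripts were called in the IP and 0.0275% in the blocked IP. Those counts correspond to 1499 transcripts at an unadjusted p under 0.05 in the IP and 3150 in the blocked IP, and DESeq2 called 712 and 2517. Basp1 had the third smallest p in the PTBP1 IP. It was at 4320.1, 3291 and 1497 CPM in injured PTBP1 IPs, against 95.4, 61.2 and 83.7 CPM in naive PTBP1 IPs, without overlap (29.2% of all transcripts did not overlap). The log2 fold change was 5.11 (SE 0.78, adjusted p = 0.0548). In the PTBP1 blocked IP it was 3.85 (SE 0.74, adjusted p = 0.0790), from 337, 526 and 327 CPM in injured and 23.5, 5.39 and 48.5 CPM in naive libraries. Without injured PTBP1 IP 3, Basp1 was called in the IP, and so was it in the blocked IP without naive blocked library 3. The authors' deposited table gave Basp1 a log2 fold change of 5.16 (FDR 1.29e-07) between injured and naive PTBP1 IPs. In the fits made here Marcks had 2.33 (adjusted p = 0.255), Nrn1 -3.04 (adjusted p = 0.255) and Sncg -4.48 (adjusted p = 0.255) between the PTBP1 IPs. The authors' deposited values there were 2.26 (FDR 0.0103) for Marcks, -2.97 (FDR 0.0038) for Nrn1 and -4.56 (FDR 9.4e-05) for Sncg. DESeq2 called 5 members in the IP, which were Basp1, Marcks, Actb, Sncg and a transcript of Hmgb1.

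**Figure D2:**
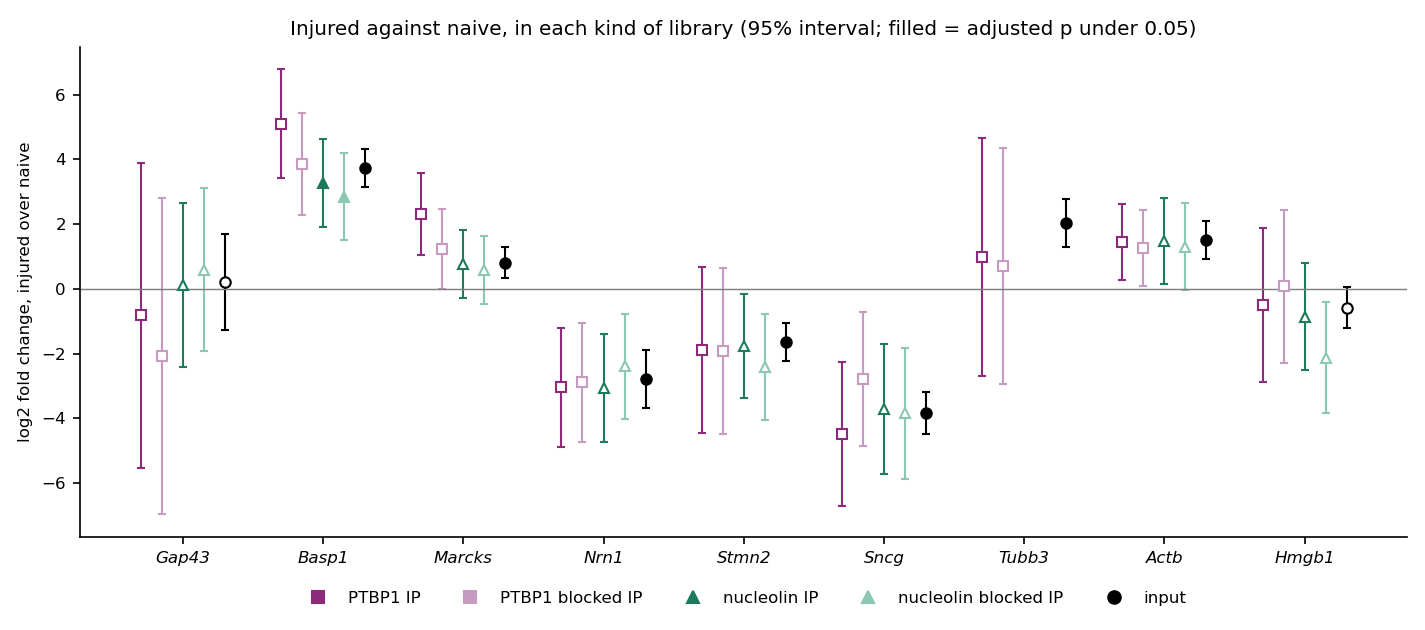
Log2 fold change of injured over naive libraries for each gene in the 5 kinds of library, with 95% intervals; filled markers have an adjusted p under 0.05. Basp1 lies above 0 in all 5 kinds (3.73 in input, 5.11 in the PTBP1 IP), Sncg and Nrn1 below 0 in all 5 (-3.83 and -2.78 in input), and the intervals are narrowest in input.

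Marcks and Basp1 stood higher in PTBP1 IPs than in PTBP1 blocked IPs in both states, without overlap, while Actb was level with its blocked control. No member passed the test in injured or in naive nerve, where 0% of 14540 transcripts were called. At an unadjusted p under 0.05 there were 1815 transcripts in injured and 1893 in naive nerve, and DESeq2 called 962 and 1128. Marcks was at 64461, 57219.9 and 13695 CPM in injured PTBP1 IPs, against 3863, 5805 and 3175 CPM in injured PTBP1 blocked IPs. These values rest on 332463 to 573407 counts in the IPs and 45569 to 71759 counts in the blocked IPs. All IPs were above all blocked IPs, with IP library 3 far below the other two. The ratio of the means was 10.5, and the log2 fold change was 3.29 (SE 0.62, unadjusted p = 9.23e-05, edgeR's quasi-likelihood test), the fourth smallest p of the comparison, with an adjusted p of 0.217. In naive nerve Marcks was at 11858, 7707 and 4865 CPM in PTBP1 IPs and 1318, 1637 and 2136 CPM in PTBP1 blocked IPs. The groups were again apart, at a ratio of means of 4.80 and a log2 fold change of 2.20 (standard error 0.59, adjusted p = 0.222). In both states Marcks was called by DESeq2, with 3.50 (adjusted p = 5.6e-05) in injured and 2.29 (adjusted p = 0.0185) in naive nerve. It was also called in both without the libraries numbered 3, with 3.67 (adjusted p = 0.00794) in injured and 2.72 (adjusted p = 0.0144) in naive nerve. That omission was chosen after the data were seen, and library 3 was the lowest Marcks IP in both states. These calls are therefore no independent support. In injured nerve Marcks was called when injured PTBP1 IP 3 alone was left out (adjusted p = 0.0276; 0.0276 to 0.426 over the 6 single omissions). The authors' deposited table gave Marcks a log2 fold change of 3.19 (FDR 0.000171) in injured and 2.06 (FDR 0.0181) in naive nerve.

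Basp1 followed Marcks. The IP and blocked IP values given above were apart in both states, with a log2 fold change of 2.84 (standard error 0.71, adjusted p = 0.217) in injured and 1.59 (SE 0.68, adjusted p = 0.326) in naive nerve. DESeq2 called Basp1 in injured nerve, with 3.03 (adjusted p = 0.00341). The authors' deposited table gave Basp1 2.82 (FDR 0.00921) in injured and 1.69 (FDR 0.141) in naive nerve. Over all transcripts, IP and blocked IP libraries did not overlap for 22.9% in injured and 13.9% in naive nerve.

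Nrn1 was at 154, 66.8 and 34.5 CPM in injured PTBP1 IPs, against 53.8, 18.1 and 5.93 CPM in injured PTBP1 blocked IPs. It was at 1043, 691 and 184 CPM in naive PTBP1 IPs and 147, 229 and 151 CPM in naive PTBP1 blocked IPs. The groups overlapped in both states, through IP library 3. The log2 fold change was 1.64 (SE 0.82, adjusted p = 0.458) in injured and 1.79 (SE 0.82, adjusted p = 0.374) in naive nerve. Sncg ran the other way, with 12.8, 8.39 and 29.7 CPM in injured PTBP1 IPs and 262, 20.9 and 51.0 CPM in injured PTBP1 blocked IPs. Those groups overlapped as well, at -2.67 (SE 0.96, adjusted p = 0.244), and in naive nerve Sncg had -0.97 (adjusted p = 0.783). For Sncg the authors' deposited values were -2.56 (FDR 0.0389) in injured and -1.08 (FDR 0.543) in naive nerve. For Nrn1 they were 1.84 (FDR 0.0675) in injured and 1.34 (FDR 0.307) in naive nerve.

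Tubb3 in the PTBP1 blocked IPs came almost wholly from library 1. It was at 18.1, 24.2 and 43.3 CPM in injured PTBP1 IPs, against 876, 22.8 and 26.3 CPM in injured PTBP1 blocked IPs, where library 1 held 10333 counts. In naive nerve it was at 34.1, 0 and 9.0 CPM in IPs and 519, 27.4 and 6.35 CPM in blocked IPs, with 8793 counts in library 1. The log2 fold changes of -3.39 (adjusted p = 0.524) in injured and -3.67 (adjusted p = 0.446) in naive nerve rest on these 2 libraries. The neuron marker sums were uneven in those groups too. They reached 1638 CPM in injured and 2110 CPM in naive PTBP1 blocked IPs, against medians of 353 and 139 CPM. Which library held each maximum was not examined. Actb was close to its blocked control, with log2 fold changes of 0.35 (SE 0.54) in injured and 0.18 (SE 0.54) in naive nerve. Stmn2, Gap43 and Hmgb1 lay between -0.91 and 1.13 with standard errors of 1.11 to 2.22.

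**Figure D3:**
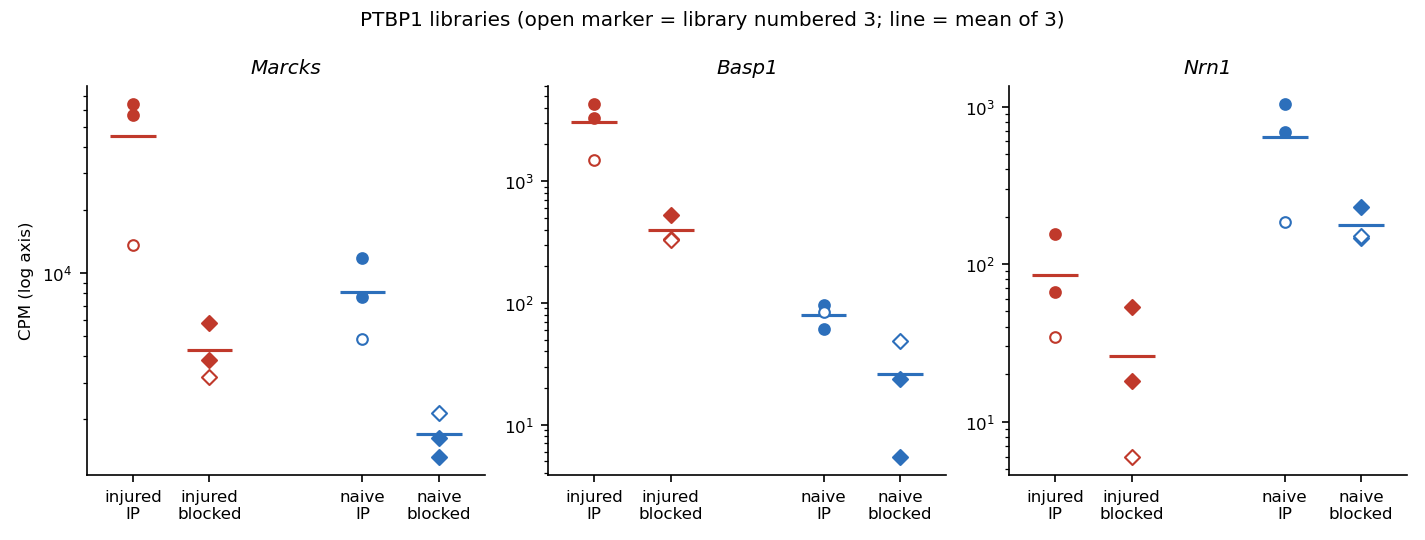
CPM of Marcks, Basp1 and Nrn1 in each PTBP1 IP (circles) and PTBP1 blocked IP (diamonds) library on a log axis, injured in red and naive in blue, with a line at the mean of 3 and open markers for the libraries numbered 3. Marcks IPs stand at 13695 to 64461 CPM in injured nerve above blocked IPs at 3175 to 5805 CPM, and the open IP marker is the lowest IP point for Marcks and Nrn1 in both states.

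Summed levels of fibroblast, macrophage and Schwann cell and myelin markers were higher in the injured PTBP1 IPs as well, although no gene of these lists was called. The fibroblast sum was 33251 to 188394 CPM in injured PTBP1 IPs, against 12979 to 23729 CPM in injured PTBP1 blocked IPs. The macrophage sum was 8568 to 26683 CPM in the IPs and 2512 to 5526 CPM in the blocked IPs. The Schwann cell and myelin sum was 8488 to 22727 CPM in the IPs and 3905 to 7158 CPM in the blocked IPs, and none of these sums overlapped between IPs and blocked IPs. Gene by gene the median log2 fold change was 0.02 for the 7 fibroblast markers, 0.20 for the 12 macrophage markers and 0.31 for the 9 Schwann cell and myelin markers, against 0.02 for all transcripts. Neuron markers went the other way, with sums of 191 to 248 CPM in injured PTBP1 IPs, against 270 to 1638 CPM in the blocked IPs. Their median log2 fold change was -2.69 for 8 markers. The adipocyte sum was 131 to 517 CPM in the IPs and 339 to 21386 CPM in the blocked IPs, with a median of -5.77 for 7 markers (-3.55 in naive nerve). The share of transcripts at 0 was lower in the injured PTBP1 IPs too. The part of these differences in the Marcks, Basp1 and Sncg values was not tested.

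Set against input in place of the blocked control, Marcks was the 1 member called for the PTBP1 IP of injured nerve, where 1.02% of 12393 transcripts were called. Its mean of 45126 ± 27459 CPM in injured PTBP1 IPs was 9.67 times the 4667 ± 566 CPM of injured inputs (SD, n = 3 each), and the groups did not overlap, as for 31.8% of all transcripts. The log2 fold change was 3.17 (SE 0.54, unadjusted p = 1.5e-05, adjusted p = 0.0238, edgeR's quasi-likelihood test), the seventh smallest p. The call was lost without injured PTBP1 IP 1 (adjusted p = 0.0903) or 2 (adjusted p = 0.0650). It was also lost without injured input 1 (adjusted p = 0.199), 2 (adjusted p = 0.219) or 3 (adjusted p = 0.157). In a fit of only the 6 libraries compared, Marcks missed the threshold (3.25, adjusted p = 0.0506) and Basp1 passed it (2.03, adjusted p = 0.0439). Without injured PTBP1 IP 3 it was kept (adjusted p = 0.000971), and over these omissions the log2 fold change stayed between 2.89 and 3.59. Basp1 had 1.95 (SE 0.59, adjusted p = 0.136), Nrn1 1.60 (SE 0.76, adjusted p = 0.552) and Actb -1.11 (adjusted p = 0.431). In naive nerve no member was called, against 0.218% of all transcripts, 922 transcripts at an unadjusted p under 0.05 and 399 DESeq2 calls. Marcks had 1.58 there (SE 0.51, adjusted p = 0.285), and 1.77 (adjusted p = 0.0148) without the libraries numbered 3, the omission chosen after the data were seen.

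The change of PTBP1 recovery with injury was tested as an interaction, the IP over blocked IP difference in injured nerve minus that in naive nerve. No member passed and 0% of transcripts were called (1147 at an unadjusted p under 0.05, and 431 by DESeq2). Marcks had an interaction of 1.09 on the log2 scale (SE 0.80, adjusted p = 0.879), Basp1 1.255 (SE 0.94, adjusted p = 0.883) and Sncg -1.70 (SE 1.29). These estimates were close in size to their standard errors.

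In nucleolin IPs set against their blocked controls, Marcks was level and no member difference passed the test. No member was called in either state and 0% of 11840 transcripts were called (769 in injured and 1422 in naive nerve at an unadjusted p under 0.05, and 322 and 762 by DESeq2, with no member among them). Marcks was at 1734, 2023 and 2998 CPM in injured nucleolin IPs, against 2234, 1489 and 2618 CPM in injured nucleolin blocked IPs. It was at 821, 1276 and 2148 CPM in naive nucleolin IPs, against 1295, 1010.4 and 2028 CPM in naive nucleolin blocked IPs. The groups overlapped in both states, with log2 fold changes of 0.12 (SE 0.48) in injured and -0.06 (SE 0.48) in naive nerve. The main transcripts of the other members tested lay between -1.06 and 0.62 in injured and between -1.27 and 0.77 in naive nerve. Tubb3 was at 7.48, 13.9 and 29.0 CPM in injured nucleolin IPs, against 46.7, 19.3 and 31.9 CPM in injured nucleolin blocked IPs. It was not listed for the naive nucleolin libraries. The nucleolin interaction with injury gave no call either, with 0% of transcripts called (302 at an unadjusted p under 0.05, 20 by DESeq2).

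The recoveries by the PTBP1 and nucleolin antibodies were compared in 1 fit of 24 libraries, a comparison added after the first results were seen. For Marcks, PTBP1 recovery minus nucleolin recovery was 3.31 on the log2 scale in injured nerve (SE 0.80, adjusted p = 0.168) and 2.29 in naive nerve (SE 0.79, adjusted p = 0.326). For Basp1 it was 2.61 (adjusted p = 0.488) in injured and 1.66 (adjusted p = 0.696) in naive nerve. No member passed, and 0% of 10752 transcripts were called in each state (712 in injured and 895 in naive nerve at an unadjusted p under 0.05). Marcks passed in injured nerve with DESeq2 (adjusted p = 0.00309) and in both states without the libraries numbered 3 (adjusted p = 0.0223 in injured and 0.0367 in naive nerve). That omission, also chosen after the data were seen, removes the lowest Marcks PTBP1 IP of each state.

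Nucleolin IPs set against input had no member called in injured nerve (0.404% of 10891 transcripts) or naive nerve (1.06%). At an unadjusted p under 0.05 there were 1606 transcripts in injured and 1488 in naive nerve. Actb, the mRNA of the actin subunit, came nearest. It was at 6224, 8237 and 9827 CPM in injured nucleolin IPs, below all injured inputs (33.7% of all transcripts did not overlap), with a log2 fold change of -1.42 (standard error 0.52, adjusted p = 0.199). Libraries with the same number deviated together in this comparison, and with the number as a block Actb fell, at -1.48 (adjusted p = 0.0484), while the calls over all transcripts numbered 393 against 44 without the block. Marcks had -1.05 (adjusted p = 0.219) and Basp1 -0.96 (adjusted p = 0.388). In naive nerve Actb had -1.253 (adjusted p = 0.296) and Marcks -0.88 (adjusted p = 0.343).

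**Figure D4:**
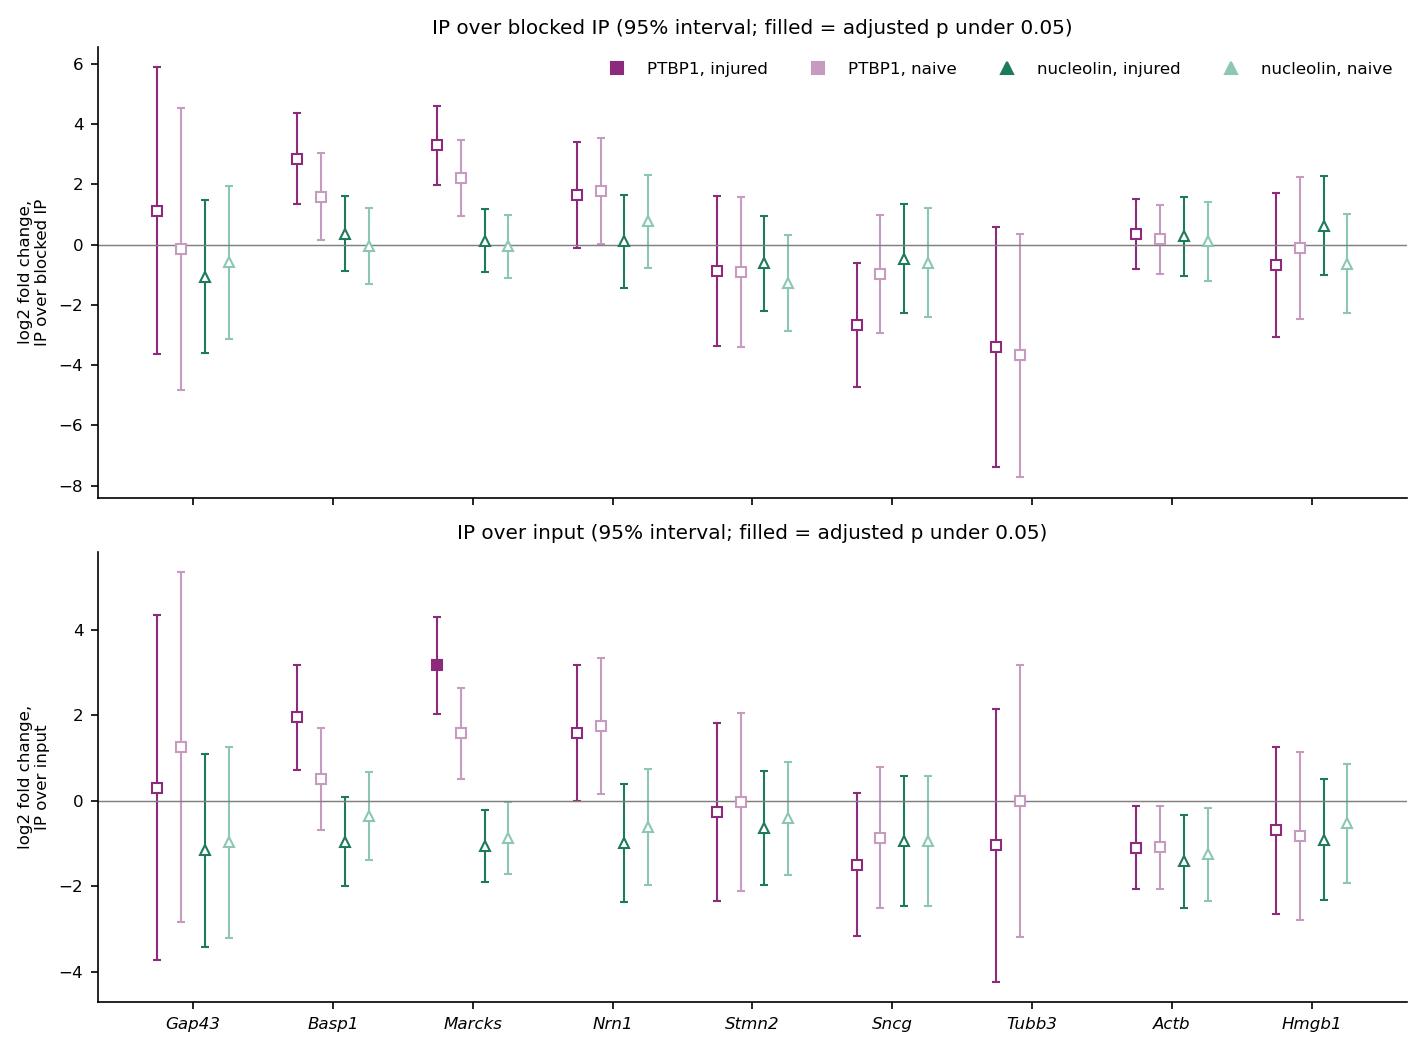
Log2 fold change of IP over blocked IP (top) and of IP over input (bottom) for each gene, with 95% intervals, for PTBP1 (squares) and nucleolin (triangles) in injured and naive nerve; filled markers have an adjusted p under 0.05. The 1 filled marker is Marcks in the injured PTBP1 IP over input (3.17), Marcks stands at 3.29 in injured and 2.20 in naive nerve over its PTBP1 blocked IPs, and its nucleolin values over blocked IP are 0.12 in injured and -0.06 in naive nerve.

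Across all 10 groups, 4 of the 9 genes (Basp1, Marcks, Actb and Tubb3) had their highest mean in an injured group and the other 5 in a naive group. Basp1 had the widest range, with a ratio of 118 between its highest mean, in injured PTBP1 IPs, and its lowest, in naive PTBP1 blocked IPs. Its 5 injured groups ranked above its 5 naive groups, with means of 301 to 3036 CPM in injured and 25.8 to 80.1 CPM in naive groups. In that order, the injured PTBP1 IP and the injured input were each apart from the group below, as was the lowest injured group from the highest naive group, and the other neighbours overlapped. Nrn1 spanned a ratio of 50.9, and its means were 12.6 to 85.2 CPM in injured and 67.7 to 639 CPM in naive groups. Its order broke cleanly at 1 place, between the naive PTBP1 blocked IP and the naive nucleolin IP. Marcks spanned a ratio of 31.9 and was highest in injured PTBP1 IPs, which stood apart from naive PTBP1 IPs, the next group. Injured PTBP1 blocked IPs were also apart from naive inputs below them, and its other neighbours overlapped.

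Sncg means were 17.0 to 111 CPM in the 5 injured groups and 337 to 723 CPM in the 5 naive groups, and every neighbour in the order overlapped the next. Stmn2 split the same way, with 17.2 to 42.8 CPM in injured and 62.5 to 157 CPM in naive groups. Its 1 clean break was between naive input and naive nucleolin IP. Actb was highest in injured input, which was apart from all other groups, with means of 6847 to 21663 CPM in injured and 2786 to 7412 CPM in naive groups. Hmgb1 means were 27.7 to 81.4 CPM in injured and 68.6 to 124 CPM in naive groups, and Gap43 means were 4.93 to 14.6 CPM in injured and 5.01 to 26.7 CPM in naive groups. No neighbours in the order were apart for Hmgb1, Gap43 or Tubb3. Gap43 varied most within groups, with a coefficient of variation of 45.2% to 168%.

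Other genes of the same pathways were followed through lists with the members left out. Their counts in the inputs stand beside 14.5% of all transcripts called higher and 13.4% called lower. In the inputs, 5 of 15 tested axon growth genes rose and 5 fell, with a median log2 fold change of 0.23 against 0.00 for all transcripts. Those with the largest rise were Dpysl3 (1.94, adjusted p = 0.000149), a collapsin response mediator, Ncam1 (1.90, adjusted p = 0.000322), a cell adhesion molecule, and Gadd45a (1.81, adjusted p = 0.000272), a stress response gene. Those with the largest fall were the membrane glycoprotein Gpm6a (-2.58, adjusted p = 1.84e-05), the actin-binding thymosin Tmsb10 (-2.09, adjusted p = 0.00606) and the stathmin Stmn3 (-1.47, adjusted p = 0.00578). Among 18 tubulin and microtubule genes, 3 rose and 3 fell, shares near those of all transcripts, with a median of -0.20. Alpha-tubulins moved in opposite directions: Tuba1c had a mean of 255 CPM in injured input, against 22.2 CPM in naive input (3.52, adjusted p = 4.01e-06), and Tuba1a 249 CPM in injured input, against 1823 CPM in naive input (-2.87, adjusted p = 0.00023).

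Of 18 actin genes, 4 rose and 1 fell, with a median of 0.50. The rises included profilin Pfn1 (1.68, adjusted p = 0.00103), the Arp2/3 subunit Arpc3 (1.51, adjusted p = 0.00974) and the capping protein Capzb (2.18, adjusted p = 0.0426), and the fall was Wasl (-1.75, adjusted p = 0.000976). Of 8 intermediate filament and spectrin genes, 3 fell and none of those 8 rose (median -0.71): ankyrin Ank3 (-2.19, adjusted p = 0.000217), spectrin Sptbn1 (-1.27, adjusted p = 0.0176) and vimentin Vim (-1.09, adjusted p = 0.0361). Of 4 synuclein and high mobility group genes, 2 were called higher: Hmgb2 (2.32, adjusted p = 3.66e-05) and Hmga2. Hmga2 was listed at 0 in all naive inputs, whereas a gene at 0 in injured inputs 2 and 3 could not be listed. Its call therefore carries no weight for the direction of this list. Of 11 mRNA transport proteins, 1 rose, a share no higher than that of all transcripts. It was Igf2bp3 (3.00, adjusted p = 0.0356), an RNA-binding protein of the zipcode-binding family, from means of 2.80 CPM in injured input, against 0.347 CPM in naive input.

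In the nucleolin libraries the lists gave few calls between injured and naive nerve. Tuba1c rose in the IP (2.83, adjusted p = 0.0133) and the blocked IP (2.70, adjusted p = 0.0122), and Gpm6a fell in both (-2.99, adjusted p = 0.0304 in the IP and -2.75, adjusted p = 0.0326 in the blocked IP). Ybx1, an mRNA-packaging protein, fell in the nucleolin IP (-2.34, adjusted p = 0.0437). For the injured PTBP1 IP over input, 3 genes of the pathway lists were called beside Marcks. Khsrp, an RNA-binding protein that speeds decay of axonal mRNAs such as Gap43, averaged 1719 CPM in injured PTBP1 IPs and 77.1 CPM in injured inputs (4.48, adjusted p = 0.0238). Elavl1, a stabilizing RNA-binding protein, had 2.23 (adjusted p = 0.0465) and the beta-tubulin Tubb5 had 1.90 (adjusted p = 0.0431). Of the cell type markers, 1 of 12 macrophage and 1 of 6 fibroblast markers tested there were also called higher, at list medians of -1.12 and -0.52. The other comparisons gave no call on any pathway list. The median of the 11 transport proteins for injured PTBP1 IP over blocked IP was 2.83, against 0.02 for all transcripts, and 0 of the 11 were called. Over input the median of the 10 tested there was 0.01 in injured nerve, against -0.06 for all transcripts, and -0.01 in naive nerve, against -0.04 for all transcripts.

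Likeness was measured for 8 of the 9 members, because Tubb3 was not listed for the naive nucleolin libraries. It was Pearson's r between log2(CPM + 1) group means over the 10 groups, among 8568 transcripts. The groups share antibodies and injury states, so this is a description. The closest to Marcks were Tubb5 (0.978), collagen Col1a1 (0.976) and Ccdc8 (0.968). The closest to Basp1 were Ptafr (0.982), Sdcbp (0.981) and the cyclin Ccna2 (0.978). Sncg was most like Fxyd7 (0.986), Tuba1a (0.986) and Gm9844 (0.985), and Stmn2 was most like Ifitm2 (0.987), Retnla (0.984) and Slc25a1 (0.982). Nrn1 was closest to Zbtb4 (0.969), Actb to Pabpc1 (0.968) and Hmgb1 to Vgll3 (0.923). Gap43 had the weakest best match of the 8, Ndufa4l2 (0.871). Between members, r was 0.94 for Sncg with Stmn2, 0.82 for Basp1 with Actb, 0.74 for Basp1 with Marcks and -0.91 for Basp1 with Sncg.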

How the data were processed

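Whole-number counts per Ensembl transcript were used as the authors deposited them, in tables filtered before deposit. CASAVA 1.8.2, edgeR and the builds GRCm38 and mm10 are named in the submitters' processing notes; for the aligner, counting tool, strand setting and annotation, nothing was given in the sources used here. Of the authors' own results, the log2 fold changes and FDR values (adjusted p-values), per the file headers, were copied for comparison only. Another 114 per-sample columns were not used. In 3 tables the column of blocked library 3 reads PCP in place of ctrl; for PTBP1 its counts were identical to a ctrl column of another table (0 of 8833 and 0 of 10954 transcripts differed), and for naive nucleolin it was mapped by name.

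Counts were fitted with edgeR 4.0.16 in R 4.3.3 (quasi-likelihood test, TMM scaling, filterByExpr, two-sided, Benjamini-Hochberg adjustment over all transcripts of a fit, threshold 0.05). One fit held the 12 libraries of each antibody, another added the 6 inputs to them, and a last fit held the inputs alone. DESeq2 1.42.0 was an alternative, and the tests were checked on simulated data. Standard errors belong to log2 fold changes. CPM used TMM factors over the 10232 transcripts listed for all 30 libraries. Positions come from GENCODE M21 on GRCm38, which held 97.8% of the identifiers. Libraries with the same number deviated together most evenly in nucleolin IP over input in injured nerve (correlations of 0.116, 0.158 and 0.159), from the data rather than the labels. Same-number correlations were positive in other comparisons too. They were 0.28, 0.0975 and 0.495 between injured and naive nucleolin IPs, and 0.0917, 0.123 and 0.244 for injured PTBP1 IP over blocked IP.

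The rule named the 9 members, the 3 transcripts most like each (mean of at least 5 CPM), and up to 3 called genes per pathway list and direction. Members and lists were chosen with earlier results of these data known. The comparison of the antibodies and the omission of libraries numbered 3 were added after seeing the data. Counting intervals were not used, because repeats vary far more than counting error.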

Additional observations from a re-analysis of the deposited data

How the results depend on the processing

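Of 259 alternative counts, 211 stayed within 1.5 times the reported count, 31 were higher and 17 lower. They were counts of members called and, for the levels, of genes with their highest mean in an injured group. Most comparisons had a reported count of 0, and there an unchanged count of 0 is no sign of stability. Of 133 alternative values of called members, 109 stayed called, 24 lost the call and 0 changed direction; 48 of 134 uncalled values changed sign at least once. The number of members called between injured and naive nucleolin IPs (1) was 3 with the replicate block, with DESeq2 and with only the libraries compared, and 0 without the libraries numbered 3. In nucleolin blocked IPs (1) it was 2 with the replicate block and with transcripts summed to genes, 4 with DESeq2, and 0 without the libraries numbered 3 and with only the libraries compared. In PTBP1 IPs (0) it was 5 with DESeq2 and 1 with the replicate block, with summed transcripts, without the libraries numbered 3 and with only the libraries compared; in PTBP1 blocked IPs (0) it was 1 with the replicate block and 5 with DESeq2. For PTBP1 IP over blocked IP (0) it was 2 in injured and 1 in naive nerve with DESeq2, and 1 in each without the libraries numbered 3. For PTBP1 IP over input, it was 2 in injured nerve with DESeq2 (reported 1) and 1 in naive nerve without the libraries numbered 3 (reported 0). For nucleolin IP over input (0), it was 1 in injured nerve with the replicate block, with DESeq2, without the libraries numbered 3 and with only the libraries compared, and 1 in naive nerve without the libraries numbered 3. For the difference between antibodies (0) it was 1 in injured nerve with DESeq2, and 1 in each state without the libraries numbered 3. The cause was not tested. Leaving out 1 library gave 6 to 8 members called in input (reported 7), 0 to 0 in nucleolin IPs, and 0 to 1 in nucleolin blocked IPs, PTBP1 IPs, PTBP1 blocked IPs, injured PTBP1 IP over blocked IP, injured PTBP1 IP over input and the injured antibody difference; the other comparisons stayed at 0. Calls over all transcripts moved more: between nucleolin IPs 98 became 334 with the replicate block, 729 with DESeq2, 495 with only the libraries compared and 0 without libraries 3. In nucleolin blocked IPs 184 became 475, 1621, 0 and 94 in the same order. For injured PTBP1 IP over input 127 became 669 with DESeq2. Input calls were 3924, of which 51.9% were higher, and 2327, of which 36.4% were higher, with library totals alone. Beyond the counts given above, the replicate block changed no count of members called. Same-numbered libraries also deviated together to some degree outside injured nucleolin IP over input, and the part of this in the results was not tested.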

Other observations

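The authors' deposited table for injured nucleolin gave values for Sncg, Basp1 and Marcks unlike those fitted here from the counts in the same table. For nucleolin IP over blocked IP in injured nerve, the authors' deposited table had a log2 fold change of 2.83 for Sncg (FDR 0.254), 1.5 for Basp1 (FDR 0.246) and 1.10 for Marcks (FDR 0.575). The fits made here gave -0.47 for Sncg, 0.37 for Basp1 and 0.12 for Marcks. The counts behind them put Sncg at 15.9, 6.58 and 50.0 CPM in injured nucleolin IPs, against 31.0, 7.47 and 65.2 CPM in injured nucleolin blocked IPs. For naive nerve the authors' deposited table had -0.54 for Sncg and -0.02 for Marcks, and the fits here had -0.60 for Sncg and -0.06 for Marcks. For PTBP1, Gap43 values differed in sign from the fits here. The authors' deposited table had 0.56 for Gap43 between injured and naive PTBP1 IPs, against -0.81 here, and 1.82 between the blocked IPs, against -2.08 here. It had -0.50 for injured PTBP1 IP over blocked IP, against 1.13 here, and 0.76 for naive PTBP1 IP over blocked IP, against -0.14 here. With the replicate block the fits here gave 0.55, 1.79, -0.48 and 0.76 for the same 4 comparisons of Gap43. No Gap43 value passed the test in either source. The main Hmgb1 transcript also differed in sign for naive PTBP1 IP over blocked IP. It had 0.60 in the authors' deposited table, against -0.11 here and 0.60 with the replicate block, none of which passed. Tubb3 differed in size for injured PTBP1 IP over blocked IP, with -0.86 deposited against -3.39 here.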
